A study of Mus musculus with 5 samples.

Results

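Genes of collagens, basement membrane and vessels were followed through the growth of the mouse cerebellum. The members are the probes whose only annotated gene symbol is Col3a1, Col1a2, Mfap2, Col4a1, Col4a2, Nid1, Serpinh1, Bmp1 or Kdr. All 9 genes had a probe, and Bmp1 had 2, which gave 10 of the 787 probes with 1 symbol and 9 of the 773 genes they name. The table holds 897 probes in all.

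Total RNA of cerebellum was hybridised to arrays from animals of embryonic day 18 (E18) or of postnatal day 7 (P7), day 14 (P14), day 21 (P21) or day 56 (P56). The labels name no strain, genotype or treatment, and describe each of the 5 columns as the mean of 2 array experiments. With 1 column per age there is no spread between samples, no test and no p-value, and the number of arrays limits the precision. Values lie between 0.01 and 100, and 420 of the 897 probes reach exactly 100. The labels do not state this scale. It was read as the percent of the probe's own highest age within each experiment, averaged over the 2 experiments. Ages can thus be compared within a probe, and shapes of profiles between probes, but levels of different genes cannot. Gabra6, a GABA receptor subunit gene of cerebellar granule cells, stood at 99.8% at P56 and 0.72% at E18. Pvalb, the parvalbumin gene of Purkinje cells and interneurons, stood at 96.6% at P56 and 2.37% at E18. On a scale set by each probe's own maximum, these values show a rise with age. They cannot check the tissue label or show that a marker is absent.

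Fibrillar collagens of types I and III form the fibres of loose connective tissue, which in the brain lies mainly in the meninges and around larger vessels. Type IV collagen, laminin and nidogen form the basement membrane, the thin sheet under the pial surface and around every brain capillary. Collagen chains are folded in the endoplasmic reticulum with help from a dedicated chaperone, secreted as procollagen and trimmed outside the cell by proteinases. During growth of the cerebellum, vessels enter from the surface, and endothelial cells extend them under the control of vascular endothelial growth factor (VEGF).

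Promoter stretches are shown first for 5 of the members that fell with age, taken from the fibrillar collagens, the basement membrane and the vessel receptor. The RefSeq table (GRCm38.p6) held windows for 8 of the 9 genes, with 9 windows in all because Mfap2 has 2. The 250 bases before the annotated start were searched on both strands for CCAAT, the box bound by the factor NF-Y, for GGGCGG, the GC box bound by Sp1, and for TATAAA. The CCAAT box was found in 5 of the 9 windows and in 33.8% of all 32851 windows, GGGCGG in 6 of the 9 and in 32.7%, and TATAAA in 1 of the 9 and in 12.4%. No match shown overlaps another. Capitals below mark these matches, written 5′ to 3′ in the direction of the gene, so that ATTGG and CCGCCC are matches on the opposite strand. Col4a1 and Col4a2 lie head to head on opposite strands, and their annotated starts are 21 bases apart. For Col4a2 only 30 bases are shown, beginning 32 bases before its start. They lie outside the 250 bases before the Col4a1 start, on the side of that start that Col4a1 transcribes. The GGGCGG matches of Col4a2, not shown, are 192 to 187 bases before its start and, on the opposite strand, 48 to 43 bases before it. The CCAAT match of Col4a1, not shown, is on the opposite strand 145 to 141 bases before its own start. A match describes these letters and is not a measured site.
Col1a2, chr6:4505368-4505617, plus strand: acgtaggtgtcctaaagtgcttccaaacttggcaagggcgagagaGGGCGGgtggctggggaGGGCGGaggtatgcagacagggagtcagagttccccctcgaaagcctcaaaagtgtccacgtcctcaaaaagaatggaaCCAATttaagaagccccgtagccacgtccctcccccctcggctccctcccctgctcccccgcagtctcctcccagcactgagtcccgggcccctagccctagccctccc
Nid1, chr13:13437352-13437601, plus strand: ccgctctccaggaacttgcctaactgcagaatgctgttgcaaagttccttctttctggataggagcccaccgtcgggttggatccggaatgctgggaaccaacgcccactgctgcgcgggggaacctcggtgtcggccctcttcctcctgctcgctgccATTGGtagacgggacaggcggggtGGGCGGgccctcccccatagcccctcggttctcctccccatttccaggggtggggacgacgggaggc
Kdr, chr5:75978456-75978705, minus strand: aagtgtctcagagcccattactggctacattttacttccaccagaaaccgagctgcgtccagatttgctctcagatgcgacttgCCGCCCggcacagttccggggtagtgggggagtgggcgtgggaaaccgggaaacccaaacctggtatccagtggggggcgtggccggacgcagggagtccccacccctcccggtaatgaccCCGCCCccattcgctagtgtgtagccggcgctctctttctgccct
Col3a1, chr1:45311288-45311537, plus strand: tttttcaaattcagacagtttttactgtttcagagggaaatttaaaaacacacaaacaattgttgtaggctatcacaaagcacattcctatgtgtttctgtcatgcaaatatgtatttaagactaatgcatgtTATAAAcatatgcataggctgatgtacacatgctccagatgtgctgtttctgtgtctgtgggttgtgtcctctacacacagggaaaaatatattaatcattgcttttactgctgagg
Col4a2, chr8:11312773-11312802, plus strand: CCAATttgttggcgctgccccctcccctcg

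Adult cerebellum (P56) was compared with embryonic cerebellum (E18) to see which of these genes differ between the mature and the growing tissue. A probe is said to have fallen or risen when the later age was at least 2-fold below or above the earlier one. Of the 10 member probes 8 fell, where 52.5% of all probes did, and 2 rose, where 22.6% of all probes did. The 2 that rose are both probes of Bmp1. The median log2 difference of the members was -2.56, and that of all 897 probes was -1.07. The scale between columns bears on this count: with each column divided by its median, 7 member probes fell and 2 rose, and over all probes 147 fell and 272 rose in place of 471 and 203. With quantile normalization 8 member probes fell and 2 rose, and over all probes 206 fell and 246 rose. These are values of whole tissue, in which fewer cells of a type and less RNA per cell cannot be told apart.

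**Figure D1:**
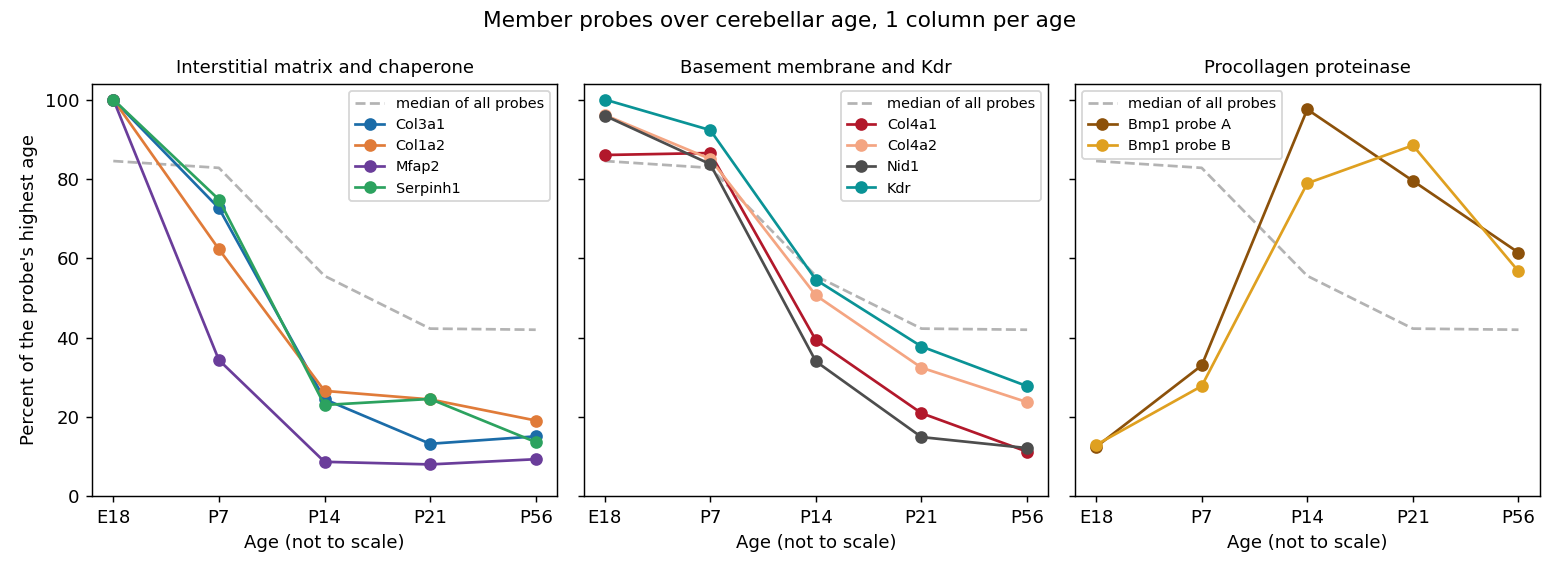
Percent of each probe's highest age, read as scaled within each experiment and then averaged (vertical axis), at 5 ages (horizontal axis, not to scale). Each point is 1 deposited value, and the dashed line is the median of all 897 probes. The 8 probes of the first 2 panels end between 9.33% and 27.8% at P56, while both Bmp1 probes are near 12% to 13% at E18 and highest at P14 or P21.

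A limit on the error follows from the scale. If each of the 2 experiments lies between 0 and 100, a mean fixes a lowest and a highest value that either of them can have had, and hence the smallest fall that either can have shown. This reading was added after the values were seen. By it 6 member probes fell at least 2-fold in both experiments, where 14.4% of all probes did, and Col4a2 and Kdr were the falling probes that missed that bound. On the same reading, a value of exactly 100 means that both experiments had their highest age there. That was the case at E18 for 5 member probes (Col3a1, Col1a2, Mfap2, Serpinh1 and Kdr), where 19.7% of all probes stood at exactly 100 at E18. In all, 7 member probes had their highest value at E18, where 34.9% of all probes did.

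The interstitial collagens among the members fell early. Col3a1, which encodes the chain of type III collagen, stood at 100% at E18, 72.6% at P7, 24.5% at P14, 13.2% at P21 and 15.1% at P56. Its value at P56 was 6.63-fold below that at E18, and neither experiment can have fallen by less than 3.31-fold. Col1a2, which encodes a chain of type I collagen, stood at 100%, 62.3%, 26.6%, 24.4% and 19.1% at the same ages. It fell 5.24-fold for P56 against E18, by at least 2.62-fold in either experiment. Most of the loss in both genes lay before P14, and the 3 later values of Col1a2 were close to each other.

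Mfap2, which encodes a glycoprotein of the microfibrils that carry fibrillin, had the steepest early course of the members. It stood at 100% at E18, 34.3% at P7, 8.68% at P14, 8.02% at P21 and 9.33% at P56. Its fall was 10.7-fold for P56 against E18, and at least 5.36-fold in either experiment. Its values from P14 on lay between 8.02% and 9.33%.

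Serpinh1, the endoplasmic reticulum chaperone that binds folded procollagen, was at its highest at E18, in both experiments on the reading given above. It stood at 100% at E18, 74.8% at P7, 23.0% at P14, 24.5% at P21 and 13.7% at P56. Its fall of 7.33-fold for P56 against E18 was at least 3.66-fold in either experiment. Over the 5 ages its log2 profile differed from that of Col1a2 by a root mean square of 0.26, from those of Col3a1 and Col4a1 by 0.41 each and from that of Nid1 by 0.42.

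The basement membrane members Col4a1, Col4a2 and Nid1 stood at 86.5%, 85.0% and 83.7% at P7. Genes outside the members did not keep to such a split at that age. Interstitial matrix genes ranged from 59.3% for Fbln2 to 98.5% for Eln, with Col1a1 at 84.3%, and Agrn of the basement membrane stood at 74.7%. Col4a1 and Col4a2 encode the chains that together form the main type IV collagen. Col4a1 stood at 86.0% at E18, 86.5% at P7, 39.3% at P14, 20.9% at P21 and 11.2% at P56. On the reading given above, only E18 and P7 are high enough to hold a highest age. Then 1 experiment was highest at E18, with 73.0% at P7, and the other at P7, with 72.0% at E18. On that reading the experiments disagreed on the direction between these ages, but their own values were not seen. The fall for P56 against E18 was 7.66-fold, and at least 3.21-fold in either experiment.

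Col4a2 stood at 96.1% at E18, 85.0% at P7, 50.6% at P14, 32.4% at P21 and 23.7% at P56. It fell 4.05-fold for P56 against E18, by at least 1.94-fold in either experiment. The chains kept close until P7 and then parted, and at P56 Col4a1 was 1.08 lower on the log2 scale than Col4a2, each relative to its own highest age. Nid1, nidogen, which links the laminin and type IV collagen networks, stood at 95.9%, 83.7%, 34.0%, 14.9% and 12.1% from E18 to P56. Its fall was 7.90-fold, and at least 3.78-fold in either experiment. On the same reading, 1 experiment was here too highest at P7, with 91.9% at E18, and the other at E18, with 67.4% at P7.

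Kdr, the main signalling receptor for VEGF on endothelial cells, had the smallest fall of the 8. It stood at 100% at E18, 92.3% at P7, 54.6% at P14, 37.7% at P21 and 27.8% at P56, lower at each age than at the one before. The fall was 3.60-fold for P56 against E18, and at least 1.80-fold in either experiment. With columns divided by their medians its log2 difference was -0.84, which is less than 2-fold. Relative to the median probe, the 8 falls ran from -0.78 (log2) for Kdr to -2.35 for Mfap2.

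**Figure D2:**
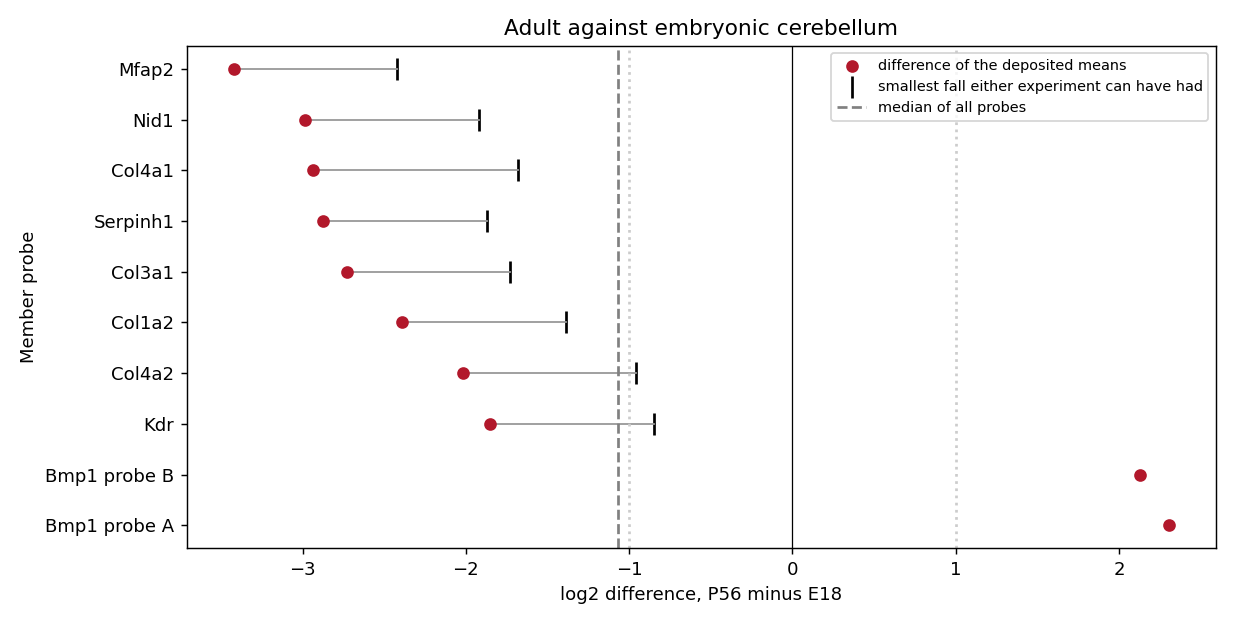
Difference of log2 percent, P56 minus E18, for each member probe (points), with a vertical tick, for the falling probes, at the smallest fall that either of the 2 experiments can have had, and a dashed line at the median of all probes; dotted lines mark 2-fold. The 8 falling probes lie between -1.85 and -3.42, and the Bmp1 probes at 2.13 and 2.30.

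Bmp1 took the other direction. In spite of its name it encodes a metalloproteinase, the enzyme that cuts the C-propeptides from procollagens. Probe A (table entry 41) stood at 12.4% at E18, 33.0% at P7, 97.5% at P14, 79.5% at P21 and 61.4% at P56. Probe B (table entry 339) stood at 13.0%, 27.8%, 78.9%, 88.4% and 56.7%. Both probes were lowest at E18; probe A was highest at P14 and probe B at P21. At P14 probe A was 7.84-fold and probe B 6.09-fold above E18, and neither experiment can have risen by less than 3.82-fold on probe A or 2.23-fold on probe B. These 2 are the member probes that rose 2-fold in both experiments by that reading, where 4.79% of all probes did for P14 against E18.

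At P56 probe A was 4.94-fold and probe B 4.38-fold above E18. For that pair of ages the reading forces no rise in both experiments, since means of 61.4% and 56.7% can hide a low value in 1 of them. Against P7 the value at P56 was 0.90 higher on the log2 scale on probe A, short of 2-fold, and 1.03 higher on probe B. The log2 profiles of the probes differed by a root mean square of 0.20, where the 14 pairs of probes of 1 gene had a median of 0.32 and a range of 0.08 to 1.31. The sources used here do not say which Bmp1 transcripts each probe reads.

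The steps between neighbouring ages showed when the members changed in the deposited means. By the reading of both experiments above, no member probe is forced to have fallen or risen 2-fold in both at any of these steps. For P7 against E18, 1 member probe fell (Mfap2, 2.91-fold), where 2.79% of all probes did, and 2 rose (Bmp1, 2.65-fold on probe A and 2.14-fold on probe B), where 5.80% of all probes did. With quantile normalization neither Bmp1 probe passed 2-fold at this step. For P14 against P7, 6 member probes fell, where 24.7% of all probes did, and 2 rose, where 14.4% did. Mfap2 fell 3.96-fold, Serpinh1 3.25-fold, Col3a1 2.97-fold, Nid1 2.46-fold, Col1a2 2.34-fold and Col4a1 2.20-fold. Kdr and Col4a2 were 1.69-fold and 1.68-fold lower and did not pass. Bmp1 rose 2.96-fold on probe A and 2.84-fold on probe B. With columns divided by their medians 2 member probes fell at this step, and over all probes 105 fell and 238 rose in place of 222 and 129.

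For P21 against P14, 1 member probe fell (Nid1, 2.28-fold), where 13.2% of all probes did. Col4a1 and Col3a1 were 1.88-fold and 1.85-fold lower, while Serpinh1 stood at 24.5% at P21 and 23.0% at P14. For P56 against P21 no member probe fell, where 2.23% of all probes did. Col4a1 and Serpinh1 were the lowest relative to P21, at 1.86-fold and 1.80-fold below it, and Col3a1 and Mfap2 stood slightly above it. In all, 4 member probes (Col1a2, Col4a2, Nid1 and Kdr) were lower at every step, where 12.7% of all probes were.

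**Figure D3:**
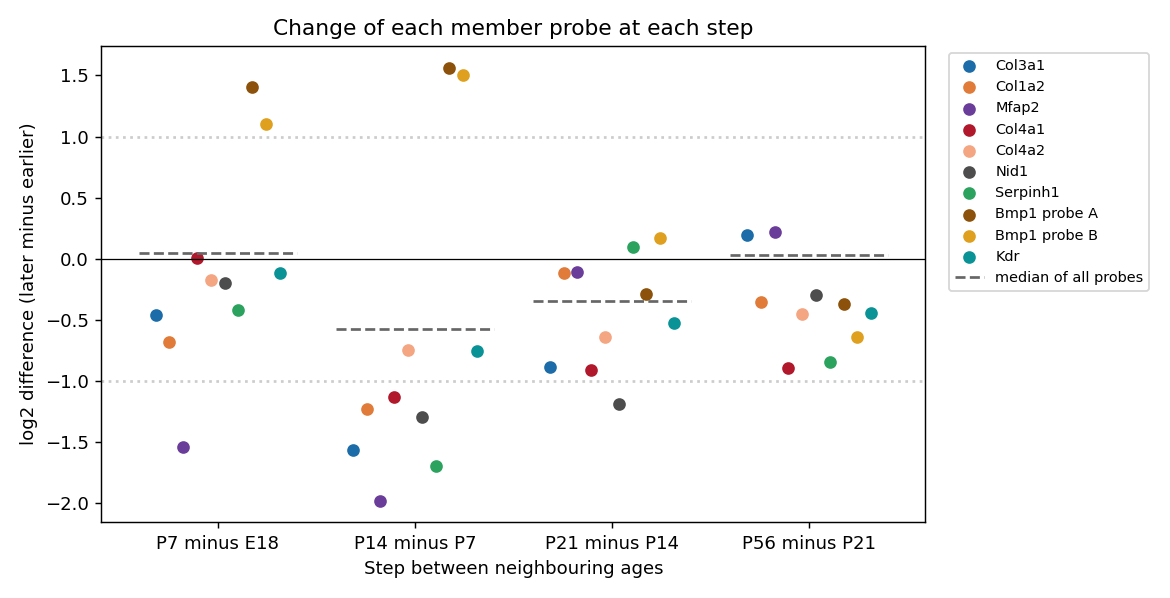
Difference of log2 percent between each age and the one before (vertical axis) for each member probe (points) at the 4 steps, with the median of all probes as dashed lines and 2-fold as dotted lines. The widest spread is at P14 minus P7, where Mfap2 lies at -1.98 and Bmp1 probe A at 1.56.

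The share of the fall reached by P14 was compared between roles. Of the percentage points lost between E18 and P56, Col3a1 had lost 89.0% by P14, Col1a2 90.8%, Serpinh1 89.2% and Mfap2 100.7%. The share was 62.4% for Col4a1, 62.8% for Col4a2, 73.9% for Nid1 and 62.9% for Kdr. The 4 values of the interstitial matrix and chaperone genes thus lay above the 4 of the basement membrane genes and Kdr. This split was made after the values were seen and has no test. The lowest of the first set lay 15.0 percentage points above the highest of the second. That gap was 27.8 points with columns divided by their medians and 21.2 with quantile normalization. Over the 471 probes that fell, the median share was 77.2%, with quartiles of 61.3% and 89.7%.

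Genes outside the members did not all follow this split. Among matrix genes the share was 111% for Bgn, 99.5% for Dcn, 96.7% for Fbln2, 93.4% for Col6a2, 88.7% for Tnc and 81.9% for Col1a1, the partner chain of Col1a2, but 47.2% for Eln, the elastin gene. Agrn and Itgb1 in the basement membrane list had 67.1% and 62.3%. Nrp1 and Notch3 in the vessel list had 94.3% and 93.9%, against 62.9% for Kdr. Ppib in the folding list had 49.95%, below all 8 members.

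Likeness between members was measured as the root mean square difference of log2 percent over the 5 ages. Without Bmp1 the 28 pairs of members had a median of 0.65, where all 401856 pairs of probes had 1.01. These 8 probes all fell for P56 against E18, while all pairs mix falling and rising probes. The lower median thus follows in part from leaving Bmp1 out, and does not show a shared course beyond the fall. The closest pair was Col4a2 and Kdr, at 0.16, and the farthest Mfap2 and Kdr, at 1.82. Col4a1 differed from Nid1 by 0.25 and from Col4a2, its partner chain, by 0.59. Col1a2 differed from Col1a1 by 0.52 and from Col3a1 by 0.44, while Col3a1 differed from Nid1 by 0.28. The closest pairs thus did not all lie within a role. The differences between partner chains were above the median of 0.32 for probes of 1 gene.

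The probes nearest to the median profile of all 10 member probes, Bmp1 included, were 1 of the 2 probes of Hes6 (root mean square difference 0.13), a transcription factor gene of the Hes family, followed by Ly6h (0.18), Prep (0.20), Id1 (0.20), Syncrip (0.21) and Tax1bp3 (0.21). Without the Bmp1 probes, an alternative added after the values were seen, the nearest were Cdk4, a cell cycle kinase gene (0.16), Ly6h (0.18), the same Hes6 probe (0.19), Hnrnpab (0.20), Serf1 (0.22) and Traf4 (0.23). Nearest to Col4a1 were Ly6h (0.17), Nhlh1, a neuronal transcription factor gene (0.23), and H1f10, a linker histone gene (0.23). Nearest to Kdr were Gm1673 (0.05), the ribosomal protein gene Rpl10a (0.08) and 1810058I24Rik (0.10). Nearest to Mfap2 were Sfrp2, a secreted Wnt antagonist gene (0.30), Sst, the somatostatin gene (0.31), and Cdkn1c, a cell cycle inhibitor gene (0.36). Nearest to the mean of the Bmp1 probes, a comparison added after the values were seen, were Ackr1, an atypical chemokine receptor gene (0.28), Cldn11, a claudin gene of myelin (0.28), and Ptpre, a tyrosine phosphatase gene (0.31). These profiles rest on 5 ages.

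Other genes of the same pathways were taken from lists. Of 44 listed interstitial matrix symbols, 7 outside the members had a probe. All 7 fell for P56 against E18, where 52.5% of all probes did, and their median log2 difference was -2.09. Tnc, the tenascin C gene, fell 10.1-fold, Eln 4.84-fold, Fbln2, a fibulin gene, 4.27-fold and Col6a2, a type VI collagen gene, 4.27-fold. The rest of this list were Col1a1 and the small proteoglycan genes Dcn and Bgn. Of 24 basement membrane symbols, 2 outside the members had a probe and both fell, where 52.5% of all probes did. Agrn, the agrin gene, fell 2.59-fold and Itgb1, an integrin subunit gene, 2.55-fold. Of 35 symbols of collagen folding and processing, 2 outside the members had a probe. Ppib, a proline isomerase gene of collagen folding, fell 3.06-fold, and P4hb, a subunit gene of prolyl hydroxylase, stood at 39.2% at P56 and 77.8% at E18. Unlike Serpinh1, both were highest at P7.

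Of 52 endothelial and pericyte symbols, 4 beside Kdr had a probe, and 2 of them fell, where 52.5% of all probes did. Nrp1, a VEGF co-receptor gene, fell 4.19-fold and Notch3, a receptor gene of mural cells, 3.55-fold. Pltp, the phospholipid transfer protein gene, stood at 100% at P56 and 50.6% at E18, and Slc2a1, the glucose transporter gene of the blood-brain barrier, at 87.6% at P56 and 63.5% at E18. The percent values of the 5 probes together summed to 267 at P56 and 414 at E18, with the lowest at 231 at P14. Genes that define endothelium, such as Pecam1 and Cdh5, were among the listed symbols but had no probe with 1 symbol.

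Markers of other cells were counted beside these genes. Of 30 meningeal and fibroblast symbols 8 had a probe. For P56 against E18, 5 of these fell, where 52.5% of all probes did, and none rose. Their percent values summed to 715 at E18, 581 at P7, 249 at P14, 263 at P21 and 355 at P56. Anxa2 fell 5.34-fold, Igfbp4 4.45-fold, Pdgfra 3.79-fold and Igfbp2 3.62-fold. Unlike the other genes named here, Pdgfra was highest at P7, at 100%, with 63.5% at E18. By the reading of both experiments, its fall is not forced in both. Ptgds, a prostaglandin D synthase gene, stood at 100% at P56 and 59.9% at E18, against the direction of the list. Whether its values come from meningeal cells was not tested. The lowest value of the list at any age was 4.82%, which on this scale does not show whether a marker was present. The 2 choroid plexus probes, Ttr and Igfbp2, summed to 200 at E18, 128 at P7, 40.2 at P14, 40.7 at P21 and 90.6 at P56. Both sums, which share Igfbp2, were higher at P56 than at P14. In the first, Ptgds rose most, from 32.9% at P14 to 100% at P56, and only Dcn and Igfbp4 were lower at P56. In the second, Ttr went from 17.1% to 62.9%. Of the 8 falling members 7, all but Mfap2, were lower at P56 than at P14. Over all probes the median log2 difference between these ages was -0.36, so a lower value at P56 was the common direction. The part of meningeal, fibroblast and choroid plexus cells in the falls of the collagen genes was not tested.

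Most probes of cell cycle and DNA replication genes had another course than most members at the first step. Of 38 probes of cell cycle and DNA replication genes, 32 were higher at P7 than at E18, where 56.1% of all probes were, and 32 had their highest value at P7. Among the members 3 of 10 were higher at P7 than at E18, both Bmp1 probes and Col4a1, the last by 0.01 on the log2 scale. All 38 probes of the list fell for P56 against E18, where 52.5% of all probes did. Their median log2 difference was -3.00. With values under 1% set to 1%, the widest differences were those of Hmgb2 and Ncaph, both under 1% at P56, Ccna2, at 1.37% at P56 and 88.2% at E18, and Prc1, at 1.39% at P56 and 89.1% at E18. The 9 probes of astrocyte and Bergmann glia genes had a median log2 difference of 2.45. Of these 7 rose, where 22.6% of all probes did, and 2 fell, where 52.5% did. Ntsr2 rose 27.5-fold, Agt 16.4-fold and S100b 16.1-fold, and the fallen ones were Tnc, which the matrix list also holds, and Id3.

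**Figure D4:**
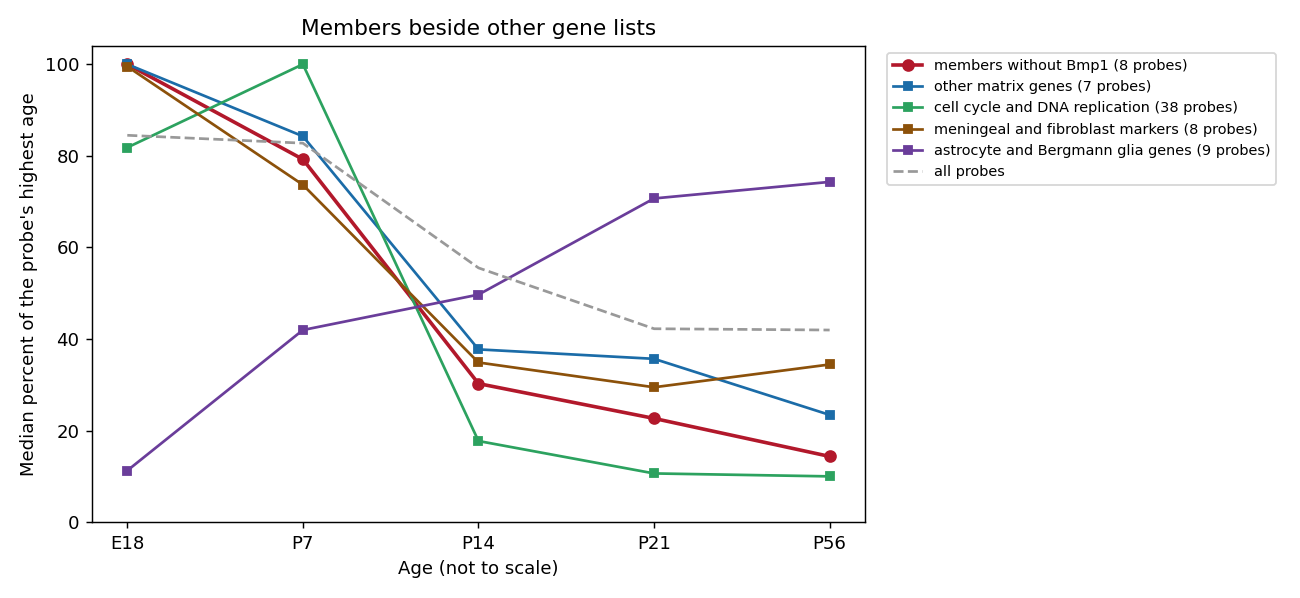
Median percent of the probe's highest age, read as scaled within each experiment and then averaged (vertical axis), at each age (horizontal axis, not to scale). Shown are the 8 member probes without Bmp1, 4 other gene lists with members left out, and all probes (dashed). The members' median is 100% at E18 and 79.2% at P7, while the median of the cell cycle list is 81.8% at E18 and 100% at P7.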

How the data were processed

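The authors deposited 1 table with 897 probes and 1 column per age. Per the labels, each column averages the signal of 2 array experiments on total RNA. The sources used here do not say whether these used separate animals, nor how background, normalization, choice of probes or the arrays' genome build were handled. That the deposited values are percent, scaled within each experiment before averaging, was inferred from the values alone. Gene symbols came from the platform annotation, whose names may be out of date: 1 symbol stood beside 787 probes, several beside 16 and none beside 94. All 10 member probes matched a RefSeq gene identifier with the same symbol.

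Differences are of log2 percent, with the 20 values under 1% set to 1% (no member value is), and a change is 2-fold or more. The calculation was tested on simulated data, and used Python 3.11.15, numpy 2.4.6 and pandas 2.3.3. All member probes are named; other genes are the most changed of each list, up to 4, those against its majority, and the nearest profiles, 6 to the members' median and 3 to single genes. Members, lists and rules were chosen with earlier results of these data known. Alternatives were other floors, a pseudocount, other scales between columns, thresholds of 3-fold and 1.5-fold, and other ages.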

Additional observations from a re-analysis of the deposited data

How the results depend on the processing

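No setting tried reversed the direction of a member probe for P56 against E18. The median log2 difference of the members ranged from -1.55 with columns divided by their medians to -2.80 without the Bmp1 probes, an alternative added after the values were seen. Of 90 values of single probes under 9 other settings, 88 kept their side of the threshold. The exceptions were Kdr with columns divided by their medians (-0.84) and Bmp1 probe A with P7 in place of E18 (0.90). The counts of falls at single steps depended on the setting. For P7 against E18 the 1 fall became 0 at a 3-fold and 2 at a 1.5-fold threshold. For P14 against P7 the 6 falls became 2 with columns divided by their medians and 2 at 3-fold. For P21 against P14 the 1 fall became 0 with a floor at the 10th percentile (20.4%), with quantile normalization, with division by column medians and at 3-fold, and 4 at 1.5-fold. For P56 against P21 the count of 0 became 3 at 1.5-fold. Over all probes, the steps gave 118 fallen and 29 risen for P21 against P14 as deposited and 51 and 61 with columns divided by their medians; for P7 against E18 they gave 25 and 52 as deposited and 57 and 44 with quantile normalization. No paired analysis was possible because each age has 1 column. Precision is limited by the 2 experiments behind each column, whose own values were not used here.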

Other observations

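Collagen genes outside the members also moved with age. By symbol, 8 collagen genes had a probe, 4 of them members. All 8 fell for P56 against E18, where 52.5% of all probes did. Of the 8, 6 were highest at E18, where 34.9% of all probes were. Col26a1 stood at 100% at E18, 53.7% at P7, 18.7% at P14, 13.9% at P21 and 5.97% at P56. Its fall was 16.8-fold. Col9a3, a chain of the cartilage collagen of type IX, kept high longer, with 67.2%, 100%, 80.2%, 38.6% and 27.5% at the same ages.

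The next 3 genes were chosen after their values were seen. Vcan, the gene of versican, a proteoglycan of growing tissue, stood at 65.8% at E18, 100% at P7, 17.0% at P14, 4.93% at P21 and 2.63% at P56. Bcan, the gene of brevican, a proteoglycan of the brain's own matrix, stood at 62.9% at P56 and 70.5% at E18. Adam19, another metalloproteinase gene, was highest at P14 like Bmp1 probe A, with 46.4% at E18, 100% at P14 and 20.7% at P56; unlike Bmp1 it ended 2.24-fold below E18.

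In the order of the deposited table, 5 member probes stand among the 10 entries from 180 to 189. All 10 of these entries fell for P56 against E18, where 52.5% of all probes did. The order of the entries has no stated reason in the labels.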
